A study of Mus musculus with 78 samples.

Results

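Tripartite motif (TRIM) genes were measured in single blastomeres of mouse 4-cell and 8-cell embryos. The genes were chosen by name, as every protein-coding mouse gene whose symbol is Trim followed by a digit, with Trim28 left out. RefSeq lists 67 such genes, and 56 of them had a row in at least 1 of the gene tables, out of 16956 genes listed in all. The 4-cell table held 52 of them among 15218 genes, the 8-cell table held 49 among 15342 genes, and 45 were listed in both. In each table every listed gene had a value above 0 in at least 1 blastomere, so a gene without a row has no level here. Trim15, Trim21, Trim30b, Trim30d, Trim46, Trim52 and Trim68 had a row only at the 4-cell stage, and Trim10, Trim38, Trim42 and Trim45 only at the 8-cell stage. The 11 genes without a row were Trim5, Trim9, Trim12a, Trim16, Trim29, Trim30c, Trim34a, Trim50, Trim55, Trim58 and Trim63.

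The embryos carried 1 copy of the allele Gt(ROSA)26Sortm1(CAG-Brainbow2.1)Cle, a cassette of fluorescent protein genes, and 1 copy of the transgene Tg(CAG-cre/Esr1*)5Amc, a Cre recombinase that acts once it binds tamoxifen. The CAG promoter, which is active in nearly all cells, drives both. All embryos were collected at the 2-cell stage, 46 hours after the mothers' second hormone injection by the labels (the study's text is not uniform on the hour), exposed briefly in vitro to 4-Hydroxytamoxifen and cultured in KSOM medium until the 4-cell or 8-cell stage, so that both stages share the alleles, the drug and the culture, and no group without them was analysed here. The labels describe 36 blastomeres from 9 4-cell embryos and 31 blastomeres from 4 8-cell embryos, and the tables hold 24 and 26 columns. Those are also the numbers of blastomeres to which the labels give a lineage, A or B, and these came from 6 and 4 embryos. No column name gives the embryo or the lineage, so each stage was taken as 1 sample. Blastomeres that share an embryo are no replicates of a stage, and no test between the stages or lineages was made. A stage difference is given by its size on the scale of log2 of the mean FPKM plus 1 (FPKM, fragments scaled to the gene's length and to the fragments of the library), which understates the difference for low genes.

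TRIM proteins carry a RING finger, 1 or more B-box zinc fingers and a coiled coil at their N-terminal end. The RING finger makes many of them E3 ubiquitin ligases, which pass ubiquitin from a conjugating enzyme to a target protein. The part after the coiled coil differs between members and gives the classes of the family, for example a B30.2 (SPRY) domain in many antiviral members, an NHL domain in RNA-binding members, or a PHD finger with a bromodomain in chromatin-binding members. The Trim43 genes are known as genes of the cleavage-stage embryo.

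The library totals behind the FPKM values, estimated from low values, were 6870000 to 16900000 fragments in the 4-cell blastomeres, and 2340000 to 21700000 fragments in the 8-cell blastomeres. The number of genes above 1 FPKM was 3009 to 8276 in a 4-cell blastomere and 3548 to 8078 in an 8-cell blastomere. In all, 2 4-cell blastomeres and 1 8-cell blastomere had fewer than 4000 genes above 1, a limit set after seeing the data, and the next blastomere had 4263. They are called gene-poor here, and results that rest on them are given with and without them. Of 10 early embryo markers, 7 had a mean of at least 1 FPKM at both stages, with Dppa3 at 3538 and 3641 FPKM. Obox3 was near 0 at both stages, Zscan4d had a mean of 5.90 and 0.434 FPKM, and Cdx2 had no row at the 4-cell stage. Of 10 cumulus and granulosa cell markers, 4 had a row at each stage, and their summed level was 9.03 to 104 FPKM in the 4-cell and 7.84 to 111 FPKM in the 8-cell blastomeres. Most of it was Amhr2, whose mean was 37.6 and 38.8 FPKM, and its part in the results below was not tested. Star reached 2.69 and 9.51 FPKM and exceeded 1 in 2 4-cell and 3 8-cell blastomeres, and Amh reached 0.132 and 1.64 FPKM. Has2 did not exceed 0.0279 FPKM in any blastomere, and Fshr, Foxl2, Ptx3, Tnfaip6, Inha and Cyp11a1 had no row in these tables.

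TRIM genes spanned the whole range of expression, and a few of them carried nearly all of the family's RNA. At the 4-cell stage 26 of the 52 listed members had a mean of at least 1 FPKM, and at the 8-cell stage 23 of 49. That is 50% and 46.9% of the listed members, beside 65% and 63% of all listed protein-coding genes. An FPKM above 1 in at least 12 of the 24 4-cell blastomeres was reached by 18 members (34.6%), and in at least 13 of the 26 8-cell blastomeres by 15 members (30.6%). Among all protein-coding genes the shares were 47.9% and 43.7%. At the other end, 17 members in the 4-cell table and 21 in the 8-cell table exceeded 1 in at most 1 blastomere, which is 32.7% and 42.9% of those listed, beside 20.7% and 24.4% of protein-coding genes. These shares are descriptions, and no test was made of them.

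**Figure D1:**
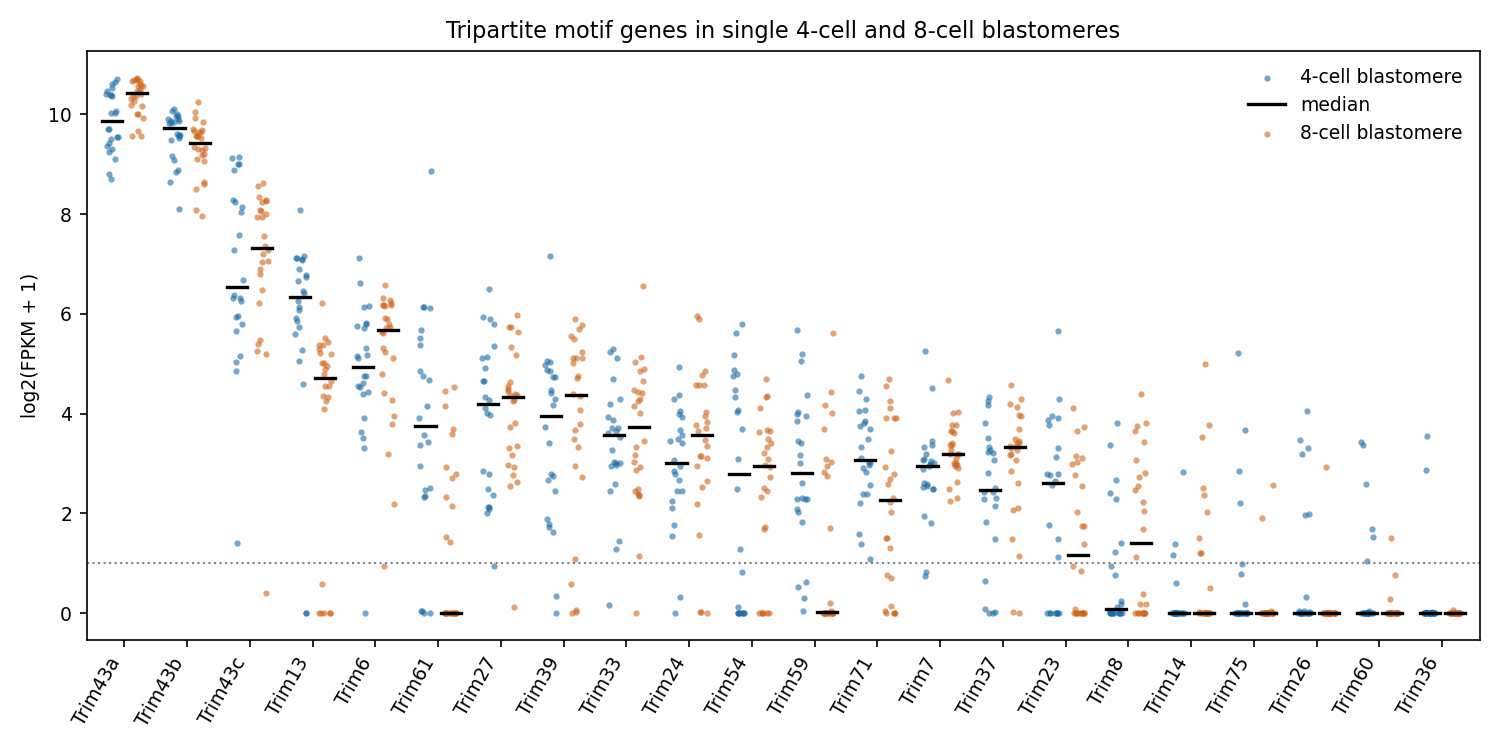
Level of 22 TRIM genes in each of 24 4-cell (blue) and 26 8-cell (orange) blastomeres, ordered by the higher stage mean. The vertical axis is log2(FPKM + 1), each point is 1 blastomere, black bars are medians over blastomeres, and the dotted line marks an FPKM of 1. Trim43a and Trim43b have the highest medians at both stages, and every blastomere lies above 248 FPKM for both.

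Trim43a and Trim43b were among the most abundant transcripts of the embryo, and Trim43c was lower and far more variable. The genes lie on chromosome 9 in GRCm38.p6. Trim43a (Entrez 547109) is at chr9:88580891-88588824 on the plus strand, Trim43c (666731) at chr9:88839164-88848190 on the plus strand, and Trim43b (666747) at chr9:89084624-89092835 on the minus strand. The copies are so alike that a read can fail to tell them apart, which bears on their levels because the authors kept only uniquely aligned reads. The first 120 coding bases of each copy, where the RING finger begins, were read from the GRCm38.p6 genome along the RefSeq models and are shown 5′ to 3′ with the 4 positions that are not equal in all copies in capitals.
Trim43a, chr9:88582038-88582157, plus strand: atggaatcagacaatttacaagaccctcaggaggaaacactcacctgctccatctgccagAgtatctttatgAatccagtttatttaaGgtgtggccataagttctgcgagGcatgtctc
Trim43b, chr9:89091559-89091678, minus strand: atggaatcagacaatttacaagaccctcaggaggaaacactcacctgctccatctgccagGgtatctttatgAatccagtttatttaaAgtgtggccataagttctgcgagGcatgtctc
Trim43c, chr9:88840303-88840422, plus strand: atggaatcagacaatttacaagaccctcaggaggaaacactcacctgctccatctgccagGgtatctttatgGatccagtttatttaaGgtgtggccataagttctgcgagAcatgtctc

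Over the whole coding sequence Trim43a and Trim43b were 98.2% identical, with 21 mismatches in 1341 aligned columns. Trim43a and Trim43c were 96.9% identical with 42 mismatches, and Trim43b and Trim43c 97.6% with 29 mismatches. Stretches of 100 bases, the read length of the study, were taken along each spliced transcript. Of these, 15% for Trim43a, 25% for Trim43b and 15.1% for Trim43c occurred without a mismatch elsewhere. Only the part of chromosome 9 around these genes and the transcripts of the other copies were searched, and the rest of the genome was not. For stretches of 200 bases, as a read pair can cover, the shares were 0.447%, 0.388% and 0. Reads from shared stretches that align to several places are not in the values, so the levels of these genes are uncertain, and how far each is lowered was not tested.

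Trim43a ranged from 415 to 1682 FPKM in the 4-cell blastomeres, with a median of 935, and from 754 to 1709 FPKM in the 8-cell blastomeres, with a median of 1379. Every blastomere of both stages was thus high, the ranges of the stages overlapped, and 10 of the 24 4-cell blastomeres lay below the lowest 8-cell one. Its mean level was 1007 and 1324 FPKM, which ranked it 23rd and 13th among all listed genes. The stage difference was 0.39 on the log2 scale, and 0.31 without the gene-poor blastomeres.

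Trim43b ranged from 273 to 1098 FPKM at the 4-cell stage, with a median of 844, and from 248 to 1208 FPKM at the 8-cell stage, with a median of 693. The ranges overlapped nearly in full, and the mean went from 790.4 to 681 FPKM, a log2 difference of -0.22. In the 4-cell blastomeres Trim43a exceeded Trim43b in 18 of 24, with a median ratio of 1.34. In the 8-cell blastomeres it did so in all 26, with a median ratio of 2.02 and a range of 1.11 to 5.98. The ratio of 5.98 was that of the gene-poor blastomere, and the next highest was 3.37. The ranges of the ratio overlapped between the stages, since it was 0.581 to 2.32 in the 4-cell blastomeres. There the ratio of 0.581 was that of a gene-poor blastomere, and the next lowest was 0.707.

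Trim43c ranged from 1.66 to 564 FPKM at the 4-cell stage, with a median of 91.9, and from 0.320 to 396 FPKM at the 8-cell stage, with a median of 159. The lowest values rested on about 44 and 8 fragments and belonged to 1 blastomere of each stage, and the next lowest were 27.8 and 35.5 FPKM. The SD of log2(FPKM + 1) over blastomeres was 1.83 and 1.71 for Trim43c, beside 0.61 and 0.35 for Trim43a and 0.51 and 0.56 for Trim43b. Without the lowest blastomere of each stage, a choice made after seeing the data, the SD of Trim43c was 1.44 and 1.08, still above that of the other copies treated alike, at most 0.57. Trim43c was below both other copies in every blastomere, and its mean of 202 and 183 FPKM hardly differed between the stages, while its median was higher at the 8-cell stage, so that no direction is given for it. The 4-cell value of 1.66 FPKM came from a gene-poor blastomere, and the 8-cell value of 0.320 FPKM did not. Exons of Trim43c share 353 bases, 17.7% of their length, with the noncoding gene 9330159M07Rik on the opposite strand. That gene had a mean of 3.70 and 2.42 FPKM, and since no source states a strand setting of the counting, reads from these bases cannot be given to one of the genes.

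Across blastomeres the log2 levels of Trim43a, Trim43b and Trim43c were positively correlated. Pearson's r between Trim43a and Trim43c was 0.76 over the 24 4-cell blastomeres and 0.45 over the 26 8-cell blastomeres. Between Trim43a and Trim43b it was 0.65 and 0.52, and between Trim43b and Trim43c 0.37 and 0.42. Without the gene-poor blastomeres the values were, in the same order, 0.73 and 0.52, 0.67 and 0.69, and 0.45 and 0.36. With the number of genes above 1 FPKM, r was 0.71 and 0.38 for Trim43a and 0.63 and 0.44 for Trim43c. Without the gene-poor blastomeres it was 0.53 and 0.58 for Trim43a and 0.47 and 0.39 for Trim43c. These are descriptions of blastomeres that share embryos, libraries of unequal depth and stretches of sequence. Together the Trim43 genes made up 49.4% to 93.9% of the summed FPKM of all TRIM genes in a 4-cell blastomere, with a median of 88.9%, and 79.5% to 94.9% in an 8-cell blastomere, with a median of 91.2%. The value of 49.4% was that of the blastomere with the fewest genes, and the next lowest was 73.2%. Without them the family's summed mean went from 313 FPKM in the 4-cell to 216 FPKM in the 8-cell blastomeres. The median of this sum was 294 and 224 FPKM. The 4-cell blastomere with the fewest genes had a sum of 942 FPKM, and the next highest had 512 FPKM. Among these members the largest drops in mean FPKM were those of Trim13, from 86.8 to 24.7, and Trim61, from 40.3 to 4.29.

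**Figure D2:**
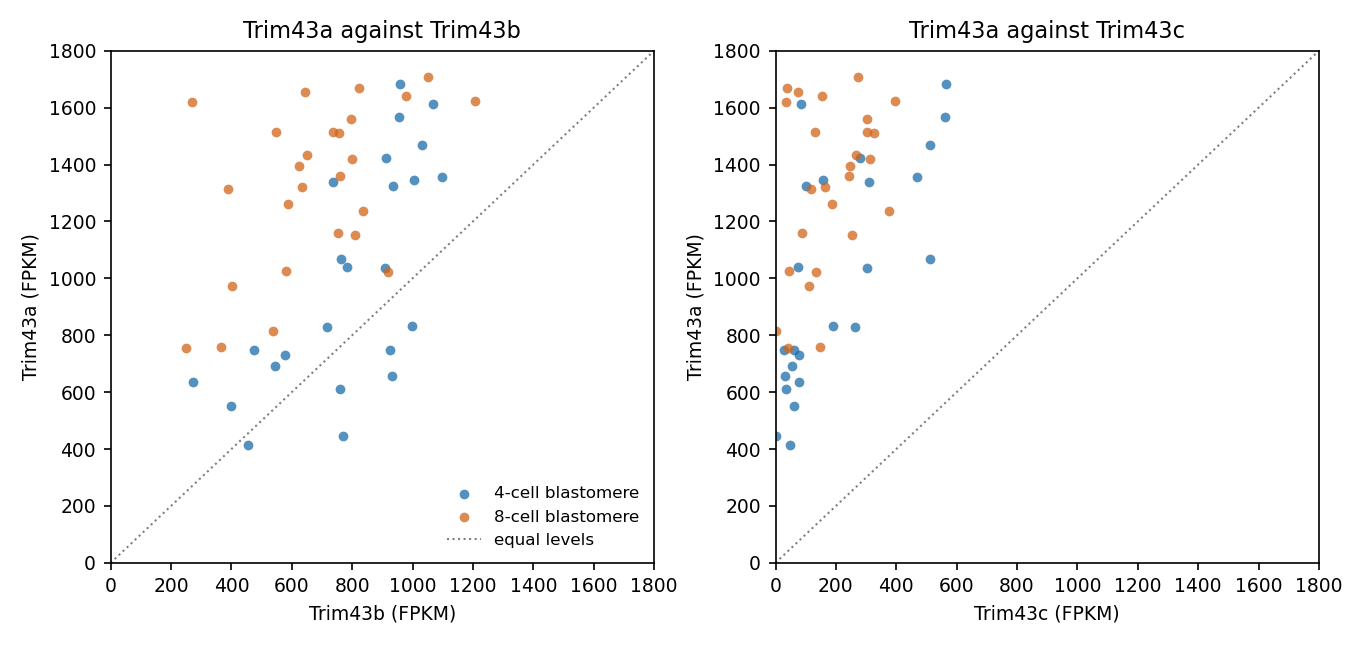
Trim43a against Trim43b (left) and Trim43c (right) in FPKM, with 1 point for each of 24 4-cell (blue) and 26 8-cell (orange) blastomeres and a dotted line where both genes are equal. All 8-cell blastomeres and 18 of the 24 4-cell blastomeres lie above the line on the left, and every blastomere does on the right.

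Trim61, Trim60 and Trim75 lie within one stretch of chromosome 8, are little characterised, and were all lower at the 8-cell stage. Trim61 (Entrez 260296) is at chr8:65012976-65018688, Trim60 (234329) at chr8:64998448-65018688 and Trim75 (333307) at chr8:64981651-64987644, all on the minus strand. Trim61 lies wholly inside the span of Trim60, and they share 231 exon bases, 10.4% of the exon length of Trim61 and 6.36% of that of Trim60.

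Trim61 ranged from 0 to 462 FPKM at the 4-cell stage, with a median of 12.5, and from 0 to 22.1 FPKM at the 8-cell stage, with a median of 0. It exceeded 1 FPKM in 20 of 24 4-cell blastomeres, which is 83.3% with an exact Clopper-Pearson 95% interval of 62.6% to 95.3%. At the 8-cell stage it did so in 12 of 26, which is 46.2% with an interval of 26.6% to 66.6%. The intervals here and below cover counting error only and do not allow for blastomeres that share an embryo. In the 14 8-cell blastomeres at 0, a count of 0 allows 3 fragments, or 0.0781 FPKM at the median depth. The highest 4-cell value was that of the blastomere with the fewest genes and made up 47.8% of the 4-cell sum, and the other gene-poor 4-cell blastomere had 69.4 FPKM, while the rest ran from 0 to 69.9 FPKM. The stage means were 40.3 and 4.29 FPKM, a log2 difference of -2.96, and without the gene-poor blastomeres it was -1.97. With each blastomere left out in turn it ran from -3.17 to -2.12.

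Trim75 ranged from 0 to 36.01 FPKM at the 4-cell stage, with a median of 0, and from 0 to 4.94 FPKM at the 8-cell stage, again with a median of 0. It exceeded 1 in 4 and 2 blastomeres. A single 4-cell blastomere held 60.7% of the 4-cell sum, and without it the log2 difference of the means was -0.64 in place of -1.42. Trim60 ranged from 0 to 9.72 FPKM in the 4-cell and from 0 to 1.85 FPKM in the 8-cell blastomeres and exceeded 1 in 6 of 24 and 1 of 26. Its log2 difference of -1.004 lay at the limit of 2-fold and ran from -1.10 to -0.74 with 1 blastomere left out.

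Trim13 was lower at the 8-cell stage in both its mean and its median. It codes for a ubiquitin ligase anchored in the membrane of the endoplasmic reticulum and lies at chr14:61598226-61610287 (Entrez 66597). It ranged from 0 to 269.8 FPKM at the 4-cell stage, with a median of 80.1, and from 0 to 73.4 FPKM at the 8-cell stage, with a median of 25.4. Of the 24 4-cell blastomeres, 13 lay above the highest 8-cell blastomere, and all 26 8-cell blastomeres lay below the 4-cell median. The 2 4-cell blastomeres at 0 were the gene-poor ones, and the other 22 had at least 23.2 FPKM. Of the 5 8-cell blastomeres at 0, 1 was gene-poor. The stage means were 86.8 and 24.7 FPKM, a log2 difference of -1.77, with a range of -1.89 to -1.64 when 1 blastomere was left out and -1.84 without the gene-poor ones.

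Trim59, the other member with a membrane anchor, was lower at the 8-cell stage too, by less than 2-fold in its mean. It ranged from 0.0354 to 50.2 FPKM in the 4-cell blastomeres, with a median of 6.06, and from 0 to 48.4 FPKM in the 8-cell blastomeres, with a median of 0.0109. It exceeded 1 FPKM in 20 of 24 (62.6% to 95.3%) and in 11 of 26 (23.4% to 63.1%) blastomeres. The log2 difference of the means was -0.83, since 1 8-cell blastomere held 32.5% of the 8-cell sum, and with 1 blastomere left out it ran from -1.25, without that one, to -0.60, without the highest 4-cell blastomere. On the difference of mean log2(FPKM + 1), which gives less weight to single high values, it was -1.37.

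Over the 45 members listed at both stages, 1 was higher and 5 were lower by at least 2-fold at the 8-cell stage. The higher one was Trim14, and the lower ones were Trim61, Trim13, Trim75, Trim26 and Trim60. That is 2.22% and 11.1% of the members, where 5.59% of all 13604 genes listed in both tables were higher and 8.28% were lower by that much. Among the 27 members with a mean of at least 1 FPKM at either stage the same 1 and 5 were found, or 3.7% and 18.5%, while the shares over the 10109 genes above that mean were 7.52% and 11.1%. With so few genes these shares are not read as particular to the family. The median log2 difference of the 45 members was -0.13, beside -0.03 over all genes. Of the members 28 were below 0 and 17 above, where 7307 of all 13604 genes were below 0 and 6297 above. The ranges over blastomeres overlapped between the stages for every member listed in both. The same was not counted over all genes, so this is not read as particular to the family.

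**Figure D3:**
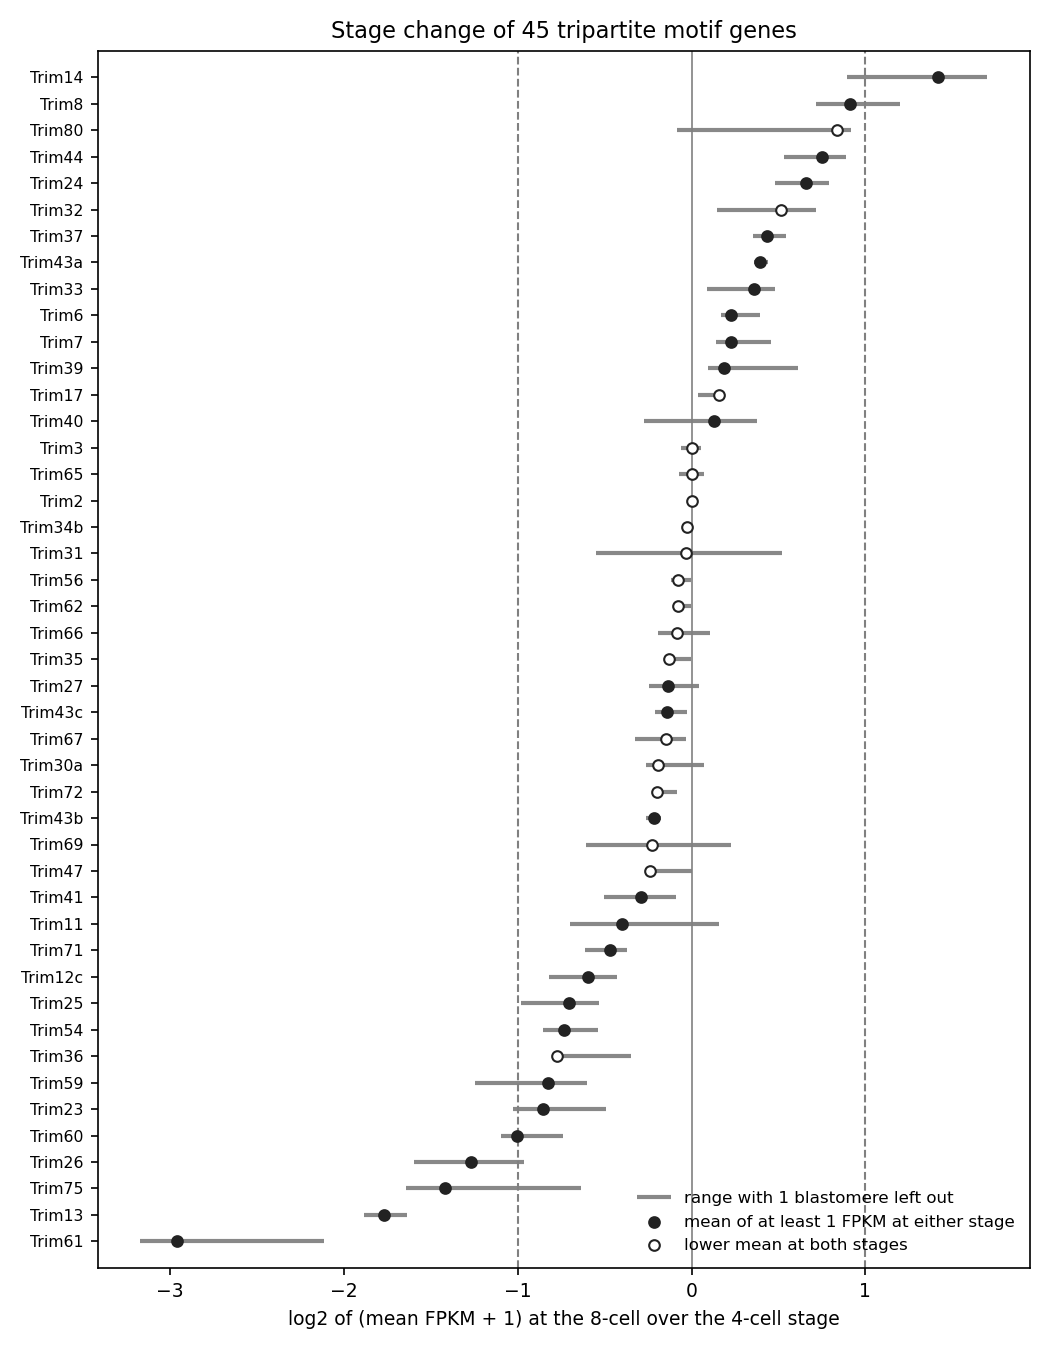
Stage difference of the 45 TRIM genes listed in both tables, as log2 of (mean FPKM + 1) at the 8-cell over the 4-cell stage, with the range over 50 values that leave out 1 blastomere each as a grey line. Filled points have a mean of at least 1 FPKM at either stage, and dashed lines mark 2-fold. Trim61 and Trim13 stay beyond 2-fold over their whole range.

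Trim14 has no RING finger and is known as an adaptor of antiviral signalling at mitochondria. It ranged from 0 to 6.12 FPKM at the 4-cell stage and from 0 to 31.1 FPKM at the 8-cell stage, with a median of 0 at both. It exceeded 1 FPKM in 3 of 24 4-cell blastomeres (2.66% to 32.4%) and in 9 of 26 8-cell blastomeres (17.2% to 55.7%). Its log2 difference was 1.42 and ran from 0.90, without the highest 8-cell blastomere, to 1.70. Its exons share 163 bases with a gene on the opposite strand, Gm16731. Trim44, which also lacks a RING finger, had a mean of 1.98 and 4.02 FPKM, a log2 difference of 0.75. Its medians were 1.06 and 0.176 FPKM, a log2 difference of -0.81, and it exceeded 1 in 13 of 24 and 11 of 26 blastomeres, so that its direction turns with the measure.

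Trim8, a regulator of cytokine signalling, had the next largest difference upward in the mean. It ranged from 0 to 13.01 FPKM at the 4-cell stage, with a median of 0.0572, and from 0 to 19.96 FPKM at the 8-cell stage, with a median of 1.69. It exceeded 1 in 7 of 24 and 14 of 26 blastomeres, and its log2 difference was 0.91. Trim80, whose log2 difference was 0.83, was above 0 in 1 blastomere of each stage, at 1.44 and 23.1 FPKM, so that its value rests on a single 8-cell blastomere, and without that one it was -0.08.

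Among the 3 chromatin-binding members with a PHD finger and a bromodomain, Trim24 and Trim33 were present in nearly every blastomere and Trim66 in hardly any. Trim24, a cofactor of nuclear receptors, ranged from 0 to 29.4 FPKM at the 4-cell stage, with a median of 7.09, and from 0 to 60.7 FPKM at the 8-cell stage, with a median of 10.9. It was above the 4-cell median in 18 of the 26 8-cell blastomeres, and its log2 difference was 0.66. Trim33, a partner of SMAD proteins, ranged from 0.125 to 38.5 FPKM and from 0.00612 to 93.9 FPKM, with medians of 10.9 and 12.5. Its highest value came from the gene-poor 8-cell blastomere, and its log2 difference of 0.36 was 0.20 without the gene-poor ones. Trim66 exceeded 1 FPKM in 1 blastomere of each stage.

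Of the 4 members with an NHL domain, Trim71 was the only one with a mean of at least 1 FPKM. Trim71, also known as Lin41, binds RNA and is a target of let-7 microRNAs. It ranged from 1.12 to 25.8 FPKM at the 4-cell stage, with a median of 7.37, and was above 1 in all 24 blastomeres. At the 8-cell stage it ranged from 0 to 24.9 FPKM, with a median of 3.82, and 18 of 26 blastomeres were above 1. The log2 difference of the means was -0.47, and ran from -0.61 to -0.37 when 1 blastomere was left out. Trim32, a ubiquitin ligase known from muscle, had a mean of 0.347 and 0.921 FPKM and was above 1 in 2 and 4 blastomeres. Without the highest blastomere of each stage its means were 0.169 and 0.493 FPKM. Trim2 and Trim3, known from neurons, had means of at most 0.0454 FPKM.

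The block of Trim5- and Trim30-related genes at chr7:104218795-104507853 holds many antiviral members and counts 10 genes. Of these 6 were listed for the 4-cell blastomeres and 4 for the 8-cell blastomeres, and Trim6 alone was broadly present. Trim6, which makes free ubiquitin chains in interferon signalling, ranged from 0 to 137 FPKM at the 4-cell stage, with a median of 29.9, and from 0.936 to 94.6 FPKM at the 8-cell stage, with a median of 50.2. It exceeded 1 in 23 of 24 and 25 of 26 blastomeres, and its log2 difference was 0.23, or 0.47 without the gene-poor blastomeres. Trim12c had a mean of 2.23 and 1.14 FPKM, and the other listed genes of the block had means of at most 0.2003 FPKM. Genes of the block are similar to each other, and reads that align to several of them are not in these values. Trim68 and Trim21 lie elsewhere on chromosome 7 and had a row only at the 4-cell stage. Trim68 was above 0 in 1 4-cell blastomere, at 6.46 FPKM, so that its mean of 0.269 FPKM rests on that one. Trim21, the cytosolic receptor of antibodies, was seen with about 1 fragment in 1 4-cell blastomere.

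Of the 7 members whose human counterparts lie in or near the major histocompatibility region, 2 were broadly present. These were Trim27 at chr13:21179450-21194723 and Trim39 at chr17:36258872-36272004, while the others had a median of 0 wherever they were listed. Trim27 ranged from 0.921 to 89.3 FPKM and from 0.0934 to 61.9 FPKM, with medians of 17.3 and 19.1. The gene-poor 4-cell blastomeres had its highest values of that stage, 89.3 and 60.4 FPKM. Its log2 difference of -0.14 was 0.17 without the gene-poor blastomeres. Trim39, known as a regulator of the anaphase-promoting complex, ranged from 0 to 142 FPKM and from 0 to 58.6 FPKM, with medians of 14.7 and 19.7. The value of 142 FPKM came from a gene-poor blastomere, the second highest of the 4-cell stage was 32.1 FPKM, and the log2 difference of 0.18 was 0.48 without the gene-poor ones. Trim26 was above 1 in 6 of 24 4-cell blastomeres, up to 15.5 FPKM, and above 0 in a single 8-cell blastomere, at 6.63 FPKM. Its log2 difference was -1.27, or -0.96 without the highest 4-cell blastomere.

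Trim25, which ubiquitinates the RNA sensor RIG-I, was the only one of 5 other antiviral members, the rest being Trim35, Trim38, Trim56 and Trim65, with a mean of at least 1 FPKM. It ranged from 0 to 16.4 FPKM, with a median of 2.51, at the 4-cell stage and from 0 to 14.8 FPKM, with a median of 0, at the 8-cell stage. It exceeded 1 in 14 of 24 and 8 of 26 blastomeres, and its log2 difference was -0.71. Of the genes of RNA and DNA sensing that were looked at beside the family, 6 had a row at both stages, 1 was higher by at least 2-fold and none was lower, which with 6 genes is not read against the 5.59% and 8.28% over all genes. The higher one was the kinase Tbk1, with a mean of 1.73 and 6.59 FPKM. Its medians were 0 and 0.222 FPKM, it exceeded 1 in 6 of 24 and 10 of 26 blastomeres, and its highest 8-cell value was 49.6 FPKM. Mavs had a mean of 9.93 and 5.53 FPKM, and Irf3 of 5.79 and 6.27 FPKM. The RNA sensor Ddx58 had a mean of 1.06 and 1.46 FPKM, Ifnb1 had no row, and Isg15, a classic interferon-induced gene, had a mean of 1.23 FPKM at the 4-cell stage and no row at the 8-cell stage.

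Some members of other classes had a mean of several FPKM, and others were near 0. Trim54, a microtubule-binding protein of muscle, was the only one of 3 COS-box muscle members with a row. It ranged from 0 to 54.6 FPKM at the 4-cell stage, with a median of 6.07, and from 0 to 24.9 FPKM at the 8-cell stage, with a median of 6.70. Its values were the second most variable of the family at the 4-cell stage, with an SD of 2.26 on the log2 scale beside 2.28 for Trim61, and it exceeded 1 in 14 of 24 and 20 of 26 blastomeres. Its mean went the other way, from 13.2 to 7.54 FPKM, a log2 difference of -0.73, or -0.91 without the gene-poor blastomeres, so that its direction turns with the measure. Trim37, which has a MATH domain and limits centriole formation, ranged from 0 to 19.2 FPKM and from 0 to 22.9 FPKM, with medians of 4.55 and 9.02, and 20 of the 26 8-cell blastomeres were above the 4-cell median. Trim23, which has an ARF GTPase domain, ranged from 0 to 49.1 FPKM and from 0 to 16.3 FPKM, with medians of 5.11 and 1.26. Its log2 difference of -0.86 was -0.50 without the gene-poor blastomeres, since 1 of them held 28.5% of the 4-cell sum. Trim7, which binds glycogenin, was above 1 in 22 of 24 and in all 26 blastomeres, with medians of 6.77 and 8.15 FPKM. Trim36, with COS, FN3 and SPRY domains, was above 1 in 2 4-cell blastomeres, up to 10.8 FPKM, and did not exceed 0.0375 FPKM at the 8-cell stage.

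The remaining listed members were low or sporadic. Trim11 had a mean of 3.16 and 2.16 FPKM and was above 1 in 6 of 24 and 5 of 26 blastomeres. A single 4-cell blastomere held 44.6% of its 4-cell sum, and without that one its log2 difference of -0.40 was 0.16. Trim41 had a mean of 1.41 and 0.970 FPKM and was above 1 in 9 and 6 blastomeres, and Trim40, of the group with human counterparts near the histocompatibility genes, had a mean of 1.81 and 2.07 FPKM and was above 1 in 7 and 4. Trim17, Trim31, Trim42, Trim45, Trim47, Trim52, Trim62, Trim67, Trim69 and Trim72 had a mean of at most 0.528 FPKM. Of the 56 listed members, 14 were at 0 in all but 1 blastomere at each stage where they were listed, and their values rest on those single blastomeres.

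**Figure D4:**
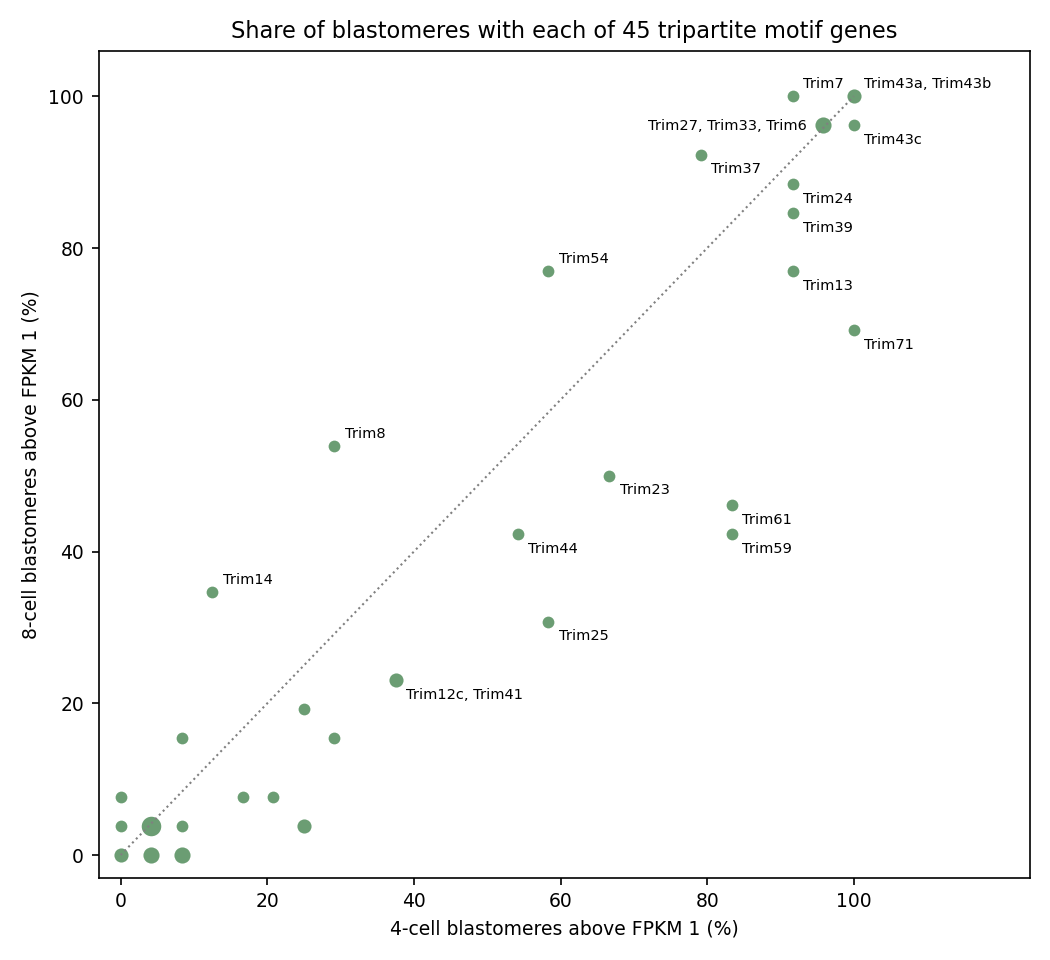
Share of 8-cell against 4-cell blastomeres above an FPKM of 1, in percent, for the 45 TRIM genes listed in both tables. Each point is 1 gene or several genes with equal shares (larger points), and the dotted line marks equal shares. Trim61, Trim59, Trim25 and Trim71 lie well below the line, and Trim8, Trim14 and Trim54 above it.

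The number of TRIM genes above 1 FPKM in a single blastomere ran from 10 to 26 at the 4-cell stage, with a median of 20, and from 8 to 23 at the 8-cell stage, with a median of 16.5. It went with the number of all genes above 1, with a Pearson's r of 0.84 over the 24 4-cell and 0.77 over the 26 8-cell blastomeres, and of 0.73 and 0.83 without the gene-poor ones. TRIM genes were 0.226% to 0.366% of all genes above 1 in a 4-cell blastomere and 0.188% to 0.395% in an 8-cell blastomere. Both upper ends were gene-poor blastomeres, and the highest of the others were 0.329% and 0.307%. Their summed FPKM was 1315 to 3439 at the 4-cell stage and 1312 to 3476 at the 8-cell stage, which is a median of 0.533% and 0.595% of all FPKM in a blastomere.

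Most of the ubiquitin-conjugating enzymes that work with RING ligases were present in nearly every blastomere, and a few were sporadic. All 11 that were looked at had a row at both stages, 10 had a mean of at least 1 FPKM at each stage, beside 65% and 63% of all protein-coding genes, and none differed by 2-fold, where 5.59% of all genes were higher and 8.28% lower by that much, with log2 differences of -0.89 to 0.79. The Ube2d family member Ube2d3 had a mean of 215 and 218 FPKM, and Ube2e3 a mean of 229 and 160 FPKM. Ube2n and its partner Ube2v1, which build chains linked through lysine 63, were above 1 in every blastomere. Ube2d1 was above 1 in 5 of 24 and 8 of 26 blastomeres, Ube2e2 in 1 and 5, and Ube2w in 20 and 14. Among 6 TRIM genes that carry other symbols, Pml alone had a mean of at least 1 FPKM, at 2.22 and 2.92 FPKM.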

How the data were processed

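The authors sequenced Smart-seq2 libraries of single blastomeres, aligned 100-base read pairs to mm10 with STAR 2.5.1b per the methods and the submitters' processing notes, counted uniquely aligned reads on RefSeq genes with HTSeq and deposited FPKM values, 1 table for each stage. The gene lengths and the total behind the FPKM values, and the strand setting, are not given in the sources used here. All 50 value columns of the gene tables were used (24 4-cell, 26 8-cell), of which 5 8-cell columns are named NA. No column name matched a sample's labels, and columns were not assigned to samples by their order or values. The repeat tables were not used here.

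Entrez numbers were matched to RefSeq of GRCm38.p6, the assembly behind mm10. The stage difference is log2 of (mean FPKM + 1) at the 8-cell over the 4-cell stage, called at 2-fold, with no test. FPKM denominators came from genes with 1 curated transcript, whose lowest values are single fragments. In each blastomere at least 90.6% of their values from 0.5 to 10 fragments lay within 0.1 of a whole number. This step was tested on simulated data and returned the simulated denominator within 1% in 24 of 24 and 26 of 26 blastomeres. The simulation used the same gene lengths as the estimate, so it cannot show an error in them. Its denominators did not reach the lowest and highest of the estimated ones. Reads carry no molecular identifiers, so limits from fragments cover counting error only. The intervals are over blastomeres, cover counting error only and do not allow for shared embryos. Genes named are the 10 highest members of each stage, the 8 largest rises and falls, the 4 most variable of each stage, the Trim43 genes and the NHL and PHD-bromodomain classes, and others are named as examples of a class after their values were seen. The members and lists were chosen with earlier results of these data known. Python 3.11.15, pandas 2.3.3, NumPy 2.4.6, SciPy 1.17.1 and Matplotlib 3.10.9 were used.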

Additional observations from a re-analysis of the deposited data

How the results depend on the processing

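No paired analysis was possible because no column name gives an embryo, a lineage or a replicate number, and the lineage comparison and its alternatives were not run for the same reason. The number of members that differed by at least 2-fold was 6, and 13 with a pseudocount of 0.1 and 4 to 7 with 1 blastomere left out. On the difference of mean log2(FPKM + 1) it was 3, namely Trim13, Trim61 and Trim59, so that Trim14, Trim26, Trim60 and Trim75 were no longer called and Trim59 was added, while 4.56% of all genes were higher and 6.76% lower. With a pseudocount of 0.1 all genes shifted as well, to 12.7% higher and 17.8% lower. Trim13 and Trim61 were called in each of these settings, and Trim60 in 22 of 50 with 1 blastomere left out. Scaled to a median difference of 0 over the 10109 genes with a mean of at least 1 FPKM, 5 members were called and Trim60 was not, beside 6.08% and 7.75% of all genes. Leaving out the gene-poor blastomeres was added after the data were seen and gave 6, beside 5.33% and 7.7% of all genes. The count was also 6 without the columns named NA (5.72% and 8.79%), with unlisted genes at 0 (4.91% and 7.23%) and with medians (5.23% and 9.78%), but with medians the higher gene was Trim8 and the lower ones were Trim13, Trim23, Trim25, Trim59 and Trim61. The median difference of the members was -0.13, and -0.39 with a pseudocount of 0.1, 0 with medians, and -0.14 to -0.08 with 1 blastomere left out. No difference of at least 2-fold changed sign, but with medians those of Trim14, Trim26, Trim60 and Trim75 were 0, since both stage medians were 0. The numbers of members above thresholds of 0.1 and 5 FPKM stayed within 1.5 times those above 1. Single low values limit most members, since 29 of 56 had a mean under 1 FPKM at each stage where they were listed.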
